A study of Mus musculus with 12 samples.

Results

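The genes described here are interferon beta (Ifnb1), the first chain of its receptor (Ifnar1) and 8 interferon regulatory factors (Irf1, Irf2, Irf3, Irf4, Irf5, Irf7, Irf8 and Irf9). They were chosen by symbol, all 10 were found among the 37991 genes of the count table, and all 10 were among the 18981 genes that passed the filter on low counts. RNA was sequenced from cultured bone-marrow-derived dendritic cells (BMDCs) of C57BL/6 mice, antigen-presenting cells grown from marrow progenitors. Cells of wild-type mice (WT) and of mice labelled as Vav1/2/3-/- (KO) were either unstimulated or given curdlan (200 mg/ml by the labels, a unit that could not be checked) for 3 hours, with 3 libraries in each of the 4 groups. The labels do not say whether the 3 libraries are separate animals or cultures, so p-values measure the spread between these libraries, which may be technical. Each group was sequenced in a lane of its own, so that group and lane cannot be told apart.

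Curdlan is a beta-glucan, recognised by the receptor Dectin-1, which signals through the kinase Syk. Vav proteins are signalling proteins of such pathways. Interferon beta is switched on by IRF3, IRF7, NF-kB and ATF2/Jun, which bind together at a short enhancer just before its start. The secreted protein binds the receptor chains IFNAR1 and IFNAR2, and a complex that contains STAT2 and IRF9 then enters the nucleus and turns on target genes, IRF7 among them. IRF1 is an activator and IRF2 largely a repressor at related sites. IRF4 and IRF8 act with partners such as PU.1 in the development of dendritic cells and B cells, and IRF5 drives inflammatory genes downstream of Toll-like receptors.

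Library totals ran from 41421718 to 61217861 counts. In the libraries labelled KO no transcript of the 3 Vav genes was lower at an adjusted p under 0.05, and the one value below 0 was -0.19 for Vav3 with curdlan (adjusted p = 0.315). Vav2 was 4.2-fold higher there without stimulation and 4.14-fold higher with curdlan. Vav1 was also higher there on the log2 scale, by 0.67 (adjusted p = 0.00021) without stimulation and 0.63 (adjusted p = 0.000289) with curdlan. Vav3 was higher without stimulation, by 0.48 (adjusted p = 0.0225). A count over a whole gene does not show whether the transcript is intact, so the transcripts do not check the labels, and every direction below that sets KO against WT rests on the labels alone. The 6 dendritic cell markers summed to between 7980 and 8480 counts per 1e6 mapped counts (CPM) in the 6 WT libraries and to between 12600 and 18000 CPM in the 6 KO libraries, and none was at 0. Most of that sum is Cd74 (6020 CPM in WT and 11000 CPM in KO without stimulation), and the members differed in direction. Cd86, H2-Ab1 and Cd74 were higher in KO in both states, while Itgax, which encodes CD11c, was lower (-0.92, adjusted p = 1.22e-05, and -0.50, adjusted p = 0.00103, with curdlan), and so was Zbtb46 with curdlan (-0.60, adjusted p = 0.00088). Markers of the cDC1 subset summed to between 24 and 33.7 CPM in WT and to between 13.4 and 17.8 CPM in KO. These 5 markers were not alike. Unstimulated means in WT and KO were 9.33 and 0.176 CPM for Clec9a and 17.1 and 9.62 for Batf3. They were 1.91 and 2.28 for Xcr1, 0.404 and 0.435 for Cadm1, and 1.95 and 1.65 for Itgae. Past the threshold 2 were lower unstimulated and 1 with curdlan, against 23.3% and 26.8% of all genes tested, and 0 were higher. Summed macrophage markers ran from 1270 to 1360 CPM in WT and from 2820 to 3490 CPM in KO, and neutrophil markers from 2990 to 4400 CPM in WT and from 4790 to 7840 CPM in KO. The largest part of the macrophage gap is C1qa, at 62.1 CPM in WT and 1190 CPM in KO unstimulated, while Cd68 was at 266 and 314 CPM. Of 6 macrophage markers 5 were higher past the threshold unstimulated and 4 with curdlan, and of 5 neutrophil markers 5 in both. For all genes tested these shares were 21.1% and 24.7%. The 6 B cell markers summed to between 33 and 44.3 CPM in WT and to between 1.35 and 1.78 CPM in KO. They were 6 of 6 lower past the threshold in both states, against 23.3% of all genes tested unstimulated and 26.8% with curdlan. Summed cDC2 and monocyte-derived markers ran from 3420 to 3720 CPM in WT and from 4080 to 4630 CPM in KO. In both states 3 of 5 were higher and 1 lower past the threshold. Plasmacytoid markers ran from 58.3 to 88.8 CPM in WT and from 62.4 to 73.2 CPM in KO. Of these 5, 2 were higher and 1 lower unstimulated, and 1 higher and 3 lower with curdlan. The shares of all genes were 21.1% and 23.3% unstimulated, and 24.7% and 26.8% with curdlan. In bulk RNA, fewer cells of a type and less RNA per cell cannot be told apart. What these markers contribute to the differences between KO and WT was not tested.

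The stretches before 3 of the starts are shown because Ifnb1 changed most of the 10 genes, Irf1 had the highest mean level per exon length in the KO curdlan group, and Irf2 was the one gene that was lower past the threshold with curdlan, in both genotypes. Each is the 250 bases before the gene's start in RefSeq (GRCm38.p6), 5′ to 3′ on the gene's strand. That of Ifnb1 is chr4:88522795-88523044 on the minus strand, that of Irf1 is chr11:53769764-53770013 on the plus strand, and that of Irf2 is chr8:46739495-46739744 on the plus strand. Capitals mark matches to the motifs named below.
Ifnb1: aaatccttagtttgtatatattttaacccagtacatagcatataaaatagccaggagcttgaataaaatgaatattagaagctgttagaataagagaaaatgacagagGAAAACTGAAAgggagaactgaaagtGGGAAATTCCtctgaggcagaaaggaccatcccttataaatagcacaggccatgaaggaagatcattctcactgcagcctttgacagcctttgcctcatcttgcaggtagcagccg
Irf1: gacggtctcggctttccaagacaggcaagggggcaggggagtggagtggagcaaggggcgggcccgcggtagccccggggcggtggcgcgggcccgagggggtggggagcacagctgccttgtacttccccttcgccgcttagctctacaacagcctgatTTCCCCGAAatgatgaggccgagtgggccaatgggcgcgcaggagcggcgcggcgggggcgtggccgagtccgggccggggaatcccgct
Irf2: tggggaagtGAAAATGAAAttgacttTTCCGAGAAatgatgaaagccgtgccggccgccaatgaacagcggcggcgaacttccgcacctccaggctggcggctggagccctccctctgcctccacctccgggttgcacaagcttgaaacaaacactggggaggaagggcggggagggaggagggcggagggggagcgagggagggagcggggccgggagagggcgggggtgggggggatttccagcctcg

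All 10 genes had at least 1 such entry, 13 in all. Both strands of the 300 bases from 250 before to 50 after each start were searched for 4 motifs. GAAANNGAAA, the core of the interferon-stimulated response element, is held by 3.44% of 32851 windows. TTCNNNGAA, an inverted repeat, is held by 8.3%. GGGANNTTCC, an NF-kB site type, is held by 1.47%. GAAANNNGAAA, a GAAA pair with wider spacing, is held by 2.75%, and was added after the Ifnb1 window had been read. Ifnb1 held GAAAACTGAAA from -142 to -132 and GGGAAATTCC from -116 to -107, counted from the RefSeq start. Irf2 held GAAAATGAAA from -241 to -232 and TTCCGAGAA from -224 to -216. The first window of Irf1 held TTCCCCGAA from -90 to -82. The first window of Irf8 held TTCTCGGAA from -171 to -163 and TTCAGAGAA from -153 to -145, and the Ifnar1 window held TTCACGGAA from -5 to 4. The windows of the other 5 genes held none of these letters. A match describes the sequence and shows no binding.

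Ifnb1 (ENSMUSG00000048806, chromosome 4, 88522025 to 88522774, minus strand of GRCm38, a single exon of 750 bases) encodes the ligand. It was the least abundant of the 10 genes in unstimulated cells of both genotypes. Values in this and the following paragraphs are CPM scaled by TMM, as above, with ± the SD of 3 libraries. The WT unstimulated libraries held 0.114, 0.1 and 0.104 CPM, from 8, 6 and 6 counts. The WT curdlan libraries 1, 2 and 4 held 5.27, 3.82 and 7.63 CPM. No library of one group reached the range of the other, and the log2 fold change of the fit was 5.68 (SE 0.47, adjusted p = 6.67e-06). Summed over libraries, 852 counts stood against 20, a ratio of 52.8 with a 95% interval of 34 to 86.9 that covers counting error only.

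In KO-labelled cells Ifnb1 was at 1.01, 2.07 and 1.39 CPM without stimulation and at 38.3, 19.2 and 34.9 CPM with curdlan. The rise was again clear of the spread, at 4.39 (SE 0.33, adjusted p = 4.19e-06), and the counts rose by a ratio of 21.6 (18.8 to 25). Unstimulated KO-labelled libraries thus lay above all 3 unstimulated WT libraries and below all 3 WT curdlan libraries. KO exceeded WT by 3.76 (SE 0.54, adjusted p = 0.000122) without stimulation and by 2.47 (SE 0.29, adjusted p = 2.42e-05) with curdlan. On counts these were ratios of 13.7 (8.63 to 22.8) and 5.6 (5.2 to 6.04). The difference of the curdlan responses, KO minus WT, was -1.29 (SE 0.66) and missed the threshold (adjusted p = 0.24). With the replicate numbers of the library names as a block, the difference was -1.24 and passed it (adjusted p = 0.0211), and with the numbers of the authors' comparison table the block gave no member past the threshold.

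**Figure D1:**
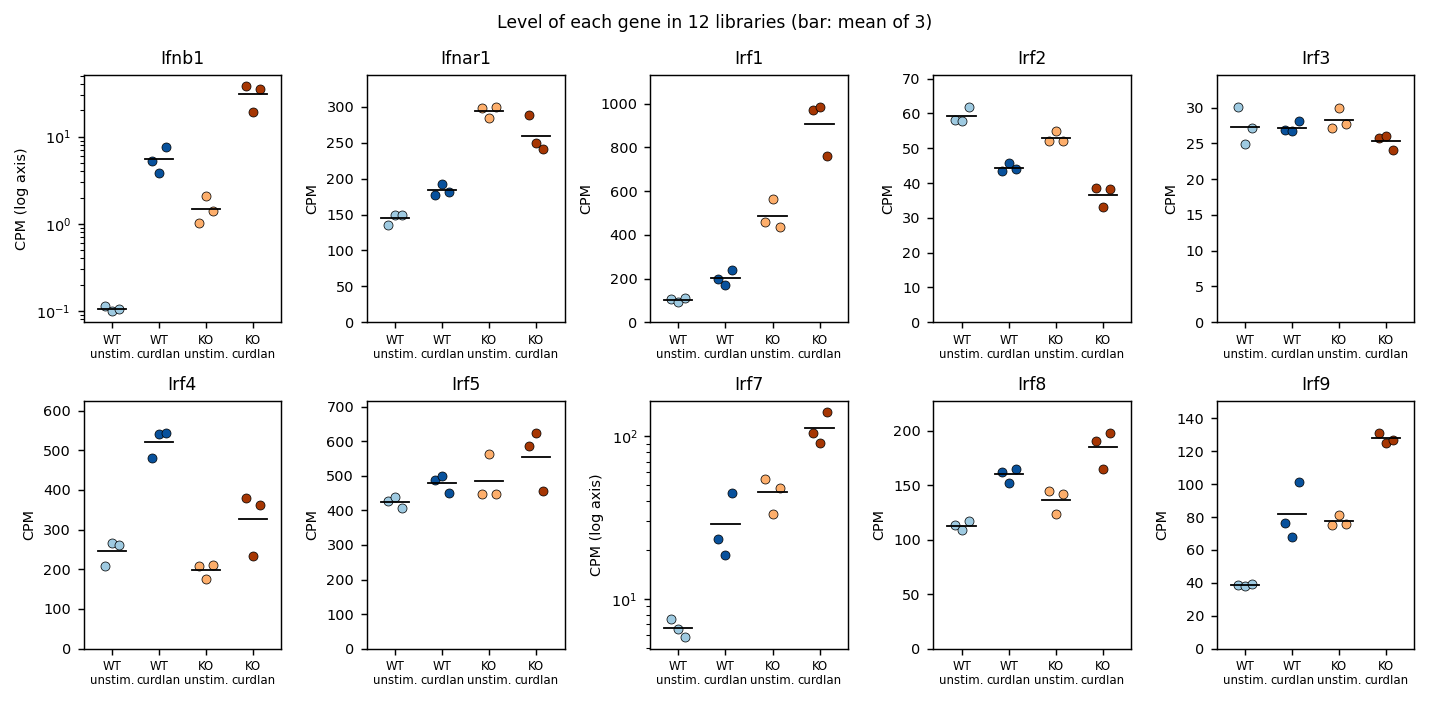
Level of each of the 10 genes in CPM (vertical axes, from 0 except for Ifnb1 and Irf7, which have log axes) in the 12 libraries (points), by group, with the mean of 3 libraries as a bar. Ifnb1 spans from 0.1 to 38.3 CPM, while Irf3 stays between 24 and 30.1 CPM in every library.

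Other interferons were close to the limit of detection. Of 20 listed ligands 10 were found, 8 had a count in any library and 0 passed the filter. The highest were Ifna16 with 34 counts over the 12 libraries, Ifnk with 22 and Ifng with 14. Ifna16 had 9 counts in WT unstimulated, 10 in WT curdlan, 8 in KO unstimulated and 7 in KO curdlan libraries. The interferon alpha genes are near-identical copies, so reads may have been split between them or dropped, and their counts are uncertain. The other 10 ligands were not analysed here.

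Ifnar1 (chromosome 16, 91485238 to 91507441, plus strand, 12 merged exons) encodes the receptor chain that binds the kinase TYK2. It was at 135, 149 and 150 CPM in WT unstimulated and at 177, 192 and 182 CPM in WT curdlan libraries, a rise of 0.34 (SE 0.08, adjusted p = 0.00943). With library size alone in place of TMM scaling this rise was 0.21 and missed the threshold (adjusted p = 0.0612). KO-labelled libraries held 298, 284 and 300 CPM unstimulated and 289, 249 and 241 CPM with curdlan. The KO groups overlapped, and the change of -0.18 (SE 0.08) missed the threshold (adjusted p = 0.104). Without KO curdlan library 2 it was -0.27 (adjusted p = 0.0148). All KO-labelled libraries lay above all WT libraries, by 1.02 (SE 0.08, adjusted p = 1.08e-06) unstimulated and 0.50 (SE 0.08, adjusted p = 0.000239) with curdlan.

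Ifnar1 was the one member whose curdlan response differed between genotypes past the threshold, by -0.52 (SE 0.11, adjusted p = 0.0216). Among all genes tested, 1.61% had a higher and 3.6% a lower response in KO-labelled cells, against 0 and 1 of the 10 members. The call was lost without WT unstimulated library 1 (-0.47, adjusted p = 0.0689), without WT curdlan library 2 (-0.49, adjusted p = 0.0728) and without KO unstimulated library 1 (-0.52, adjusted p = 0.0609). It was also lost with the comparison table's numbers as the replicate block (-0.49, adjusted p = 0.0839). Ifnar2 encodes the other receptor chain. It was at 54.3 ± 2.66 CPM in WT unstimulated, 64.4 ± 3.57 in WT curdlan, 108 ± 8.33 in KO unstimulated and 93.5 ± 1.69 in KO curdlan libraries. Its response was 0.25 (SE 0.07, adjusted p = 0.0297) in WT and -0.21 (SE 0.07, adjusted p = 0.0403) in KO, and the difference was -0.46 (SE 0.10, adjusted p = 0.024). These calls were no firmer than that of Ifnar1. The difference missed the threshold in 6 of the 12 fits that left out 1 library, which were those without WT unstimulated library 1 or 2, WT curdlan library 1 or 2, or KO unstimulated library 1 or 5, with adjusted p from 0.0501 to 0.0649. The rise in WT missed it in 5 of 6 such fits, all but that without WT curdlan library 4, and the fall in KO in 5 of 6, all but that without KO unstimulated library 2. The rise in WT was also lost with upper-quartile scaling (adjusted p = 0.0612), with library size alone and without the filter on low counts (adjusted p = 0.0627). The fall in KO was also lost without that filter (adjusted p = 0.0562), with the 2 groups alone (adjusted p = 0.12) and with the comparison table's numbers as the replicate block (adjusted p = 0.078).

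The factors that act at the Ifnb1 enhancer and downstream of the receptor were not alike. Irf3 (chromosome 7, 44997648 to 45002848, plus strand), which is activated by phosphorylation, was between 24 and 30.1 CPM in all 12 libraries. Its mean was 27.3 ± 2.61 CPM in WT unstimulated, 27.2 ± 0.729 in WT curdlan, 28.3 ± 1.42 in KO unstimulated and 25.3 ± 1.08 in KO curdlan libraries. The KO curdlan libraries, at 25.8, 26 and 24 CPM, lay below every KO unstimulated and every WT curdlan library. No comparison passed the threshold. The values were -0.01 for curdlan in WT (adjusted p = 0.97), -0.16 for curdlan in KO (0.144), 0.05 for KO against WT unstimulated (0.653) and -0.11 with curdlan (0.272), with adjusted p in parentheses and SEs of 0.08. With library size alone, which shifts all genes downward in these contrasts, Irf3 was lower at -0.36 for curdlan in KO and at -0.35 for KO against WT with curdlan.

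Irf7 (chromosome 7, 141262706 to 141266481, minus strand) encodes the factor that sustains interferon production once interferon has been made. Its WT unstimulated libraries held 7.55, 6.55 and 5.8 CPM, and its WT curdlan libraries 23.2, 18.5 and 45 CPM, with library 4 far above the other two. The groups did not overlap, and the rise was 2.12 (SE 0.31, adjusted p = 0.000478). KO-labelled libraries held 54.7, 33.1 and 48.2 CPM unstimulated and 105, 91.1 and 141 CPM with curdlan, a rise of 1.31 (SE 0.29, adjusted p = 0.00537). Of the unstimulated KO-labelled libraries, that at 33.1 CPM lay within the WT curdlan range of 18.5 to 45 CPM. Those at 54.7 and 48.2 CPM lay above it. KO exceeded WT by 2.77 (SE 0.31, adjusted p = 1.9e-05) unstimulated and by 1.96 (SE 0.29, adjusted p = 0.000165) with curdlan. The difference of the responses was -0.81 (SE 0.41, adjusted p = 0.238).

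Irf9 (chromosome 14, 55603571 to 55610030, plus strand) encodes the DNA-binding part of the complex with STAT2. It was at 38.8, 37.9 and 39 CPM in WT unstimulated and at 76.2, 67.9 and 101 CPM in WT curdlan libraries, a rise of 1.08 (SE 0.11, adjusted p = 4.42e-05). WT curdlan library 4 was again the highest of its group, as it was for Ifnb1, Irf1 and Irf7. KO-labelled libraries held 75.1, 81.1 and 75.6 CPM unstimulated, within the range of WT with curdlan, and 131, 125 and 127 CPM with curdlan. The rise in KO was 0.72 (SE 0.11, adjusted p = 0.000611). KO exceeded WT by 1.00 (SE 0.11, adjusted p = 2.01e-05) and 0.64 (SE 0.11, adjusted p = 0.000482) in the unstimulated and curdlan states. The difference of the responses was -0.36 (SE 0.16, adjusted p = 0.181). Irf9 shares 123 exon bases with Rnf31 on the same strand, so reads there could belong to either gene.

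Irf1 (chromosome 11, 53770014 to 53778374, plus strand), an activator that is itself induced by interferons and NF-kB, had the largest gap between genotypes after Ifnb1 and Irf7 without stimulation. WT libraries held 105, 92.2 and 109 CPM unstimulated and 200, 169 and 237 CPM with curdlan, a rise of 0.98 (SE 0.14, adjusted p = 0.000548). KO-labelled libraries held 459, 564 and 434 CPM unstimulated and 972, 985 and 759 CPM with curdlan, a rise of 0.90 (SE 0.14, adjusted p = 0.000745). Even the unstimulated KO-labelled libraries exceeded every WT library with curdlan. The gaps between genotypes were 2.25 (SE 0.15, adjusted p = 2.95e-07) unstimulated and 2.17 (SE 0.15, adjusted p = 4.77e-07) with curdlan. The difference of the responses was -0.08 (SE 0.20, adjusted p = 0.847).

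Irf2 (chromosome 8, 46739732 to 46847458, plus strand), whose protein competes with IRF1, moved the other way. Its WT libraries held 58.2, 57.7 and 61.9 CPM unstimulated and 43.4, 45.7 and 44.1 CPM with curdlan, a change of -0.42 (SE 0.07, adjusted p = 0.00131). KO-labelled libraries held 52, 55.1 and 52 CPM unstimulated and 38.6, 33 and 38.2 CPM with curdlan, a change of -0.53 (SE 0.07, adjusted p = 0.000201). The groups did not overlap in either genotype. KO was lower than WT with curdlan, at -0.28 (SE 0.07, adjusted p = 0.00558). Without stimulation the groups did not overlap either, but the value of -0.16 (SE 0.07) missed the threshold (adjusted p = 0.0833). It passed with upper-quartile scaling (-0.19, adjusted p = 0.042) and with library size alone (-0.34, adjusted p = 0.00178).

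Irf4 (chromosome 13, 30749226 to 30766976, plus strand) was the one member that was higher with curdlan and lower in KO past the threshold. WT libraries held 209, 266 and 261 CPM unstimulated and 480, 541 and 543 CPM with curdlan, a rise of 1.09 (SE 0.16, adjusted p = 0.000571). KO-labelled libraries held 208, 175 and 210 CPM unstimulated and 380, 233 and 363 CPM with curdlan, a rise of 0.72 (SE 0.16, adjusted p = 0.00587). KO curdlan library 4 was the low one, as it was for Ifnb1 and Irf7. With curdlan KO was lower than WT at -0.68 (SE 0.16, adjusted p = 0.00372), and every KO library lay below every WT library. Unstimulated, the groups overlapped and the value was -0.31 (SE 0.16, adjusted p = 0.136). It passed the threshold with library size alone (-0.49, adjusted p = 0.02) and with the 2 groups fitted alone (-0.31, adjusted p = 0.0487). The difference of the responses was -0.37 (SE 0.23, adjusted p = 0.331).

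Irf8 (chromosome 8, 120736358 to 120756694, plus strand) rose less. WT libraries held 114, 109 and 117 CPM unstimulated and 162, 152 and 165 CPM with curdlan, a rise of 0.50 (SE 0.08, adjusted p = 0.0012). KO-labelled libraries held 145, 124 and 142 CPM unstimulated and 191, 165 and 198 CPM with curdlan, a rise of 0.43 (SE 0.08, adjusted p = 0.00244). KO exceeded WT by 0.28 (SE 0.08, adjusted p = 0.0164) unstimulated, a call that was lost without WT unstimulated library 2 (0.25, adjusted p = 0.0608), without KO unstimulated library 1 (0.23, adjusted p = 0.0663), without KO unstimulated library 5 (0.25, adjusted p = 0.0545), with library size alone (0.09, adjusted p = 0.355) and with the comparison table's numbers as a block across genotypes (0.23, adjusted p = 0.0559). With curdlan the value was 0.21 (SE 0.08, adjusted p = 0.0519), and it passed without KO curdlan library 4 (0.27, adjusted p = 0.0145), with RLE scaling (0.21, adjusted p = 0.0459), with upper-quartile scaling (0.22, adjusted p = 0.0405) and with DESeq2 (0.21, adjusted p = 0.0475). With library size alone it was -0.04 (adjusted p = 0.716). The difference of the responses was -0.07 (SE 0.12, adjusted p = 0.76).

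Set against each other within a library, Irf4 and Irf8 separated the genotypes within each state, but not across states. The ratio of Irf4 to Irf8 counts was 1.84, 2.43 and 2.24 in WT unstimulated and 2.96, 3.55 and 3.28 in WT curdlan libraries. It was 1.43, 1.41 and 1.48 in KO unstimulated and 1.99, 1.41 and 1.84 in KO curdlan libraries. Every WT library exceeded every KO-labelled library of its own state, and this ratio is given as a description with no test. Both genes are also expressed by B cells, whose markers were lower in KO, and the part of B cells in these ratios was not tested.

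Irf5 (chromosome 6, 29526625 to 29541871, plus strand), per exon length the most abundant member in 3 of the 4 groups, did not pass the threshold in any comparison. Its means were 424 ± 17.1 CPM in WT unstimulated, 479 ± 25.9 in WT curdlan, 486 ± 68.5 in KO unstimulated and 556 ± 88.6 in KO curdlan libraries. WT libraries ran from 407 to 440 CPM unstimulated and from 450 to 499 CPM with curdlan, and KO-labelled libraries from 447 to 565 CPM and from 455 to 624 CPM. Curdlan gave 0.17 in WT (adjusted p = 0.34) and 0.19 in KO (adjusted p = 0.258). KO against WT gave 0.20 unstimulated (adjusted p = 0.21) and 0.21 with curdlan (adjusted p = 0.156), with SEs of 0.12. The WT groups did not overlap, and the WT value passed the threshold with the replicate block (0.17, adjusted p = 0.0168) and with the 2 groups fitted alone (0.20, adjusted p = 0.0328). KO against WT with curdlan passed without KO curdlan library 5 (0.34, adjusted p = 0.0187). Irf5 shares 411 of its exon bases (14.1%) with Tnpo3 on the other strand, and the library kit does not mark strand, so reads of that stretch cannot be told apart. The same holds for shorter stretches of Irf1 (135 bases with Gm17334), Irf3 (88 with Bcl2l12) and Irf7 (45 with Phrf1).

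**Figure D2:**
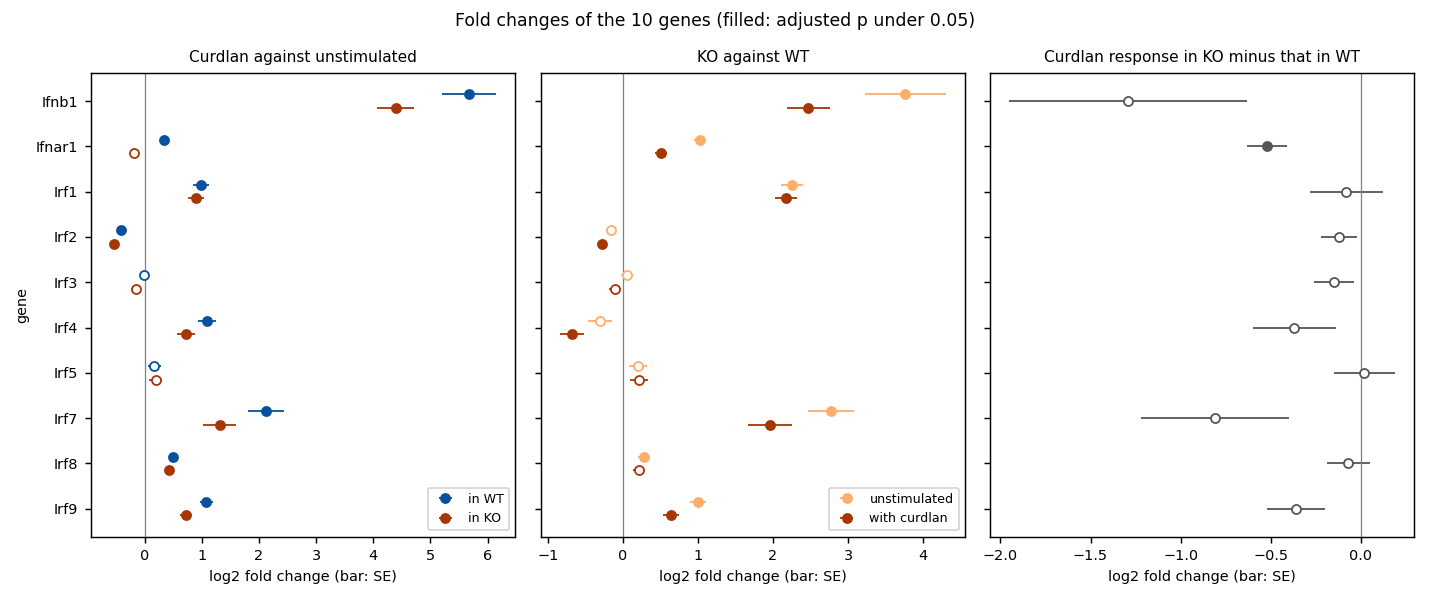
log2 fold change (horizontal axes, with the SE as a bar) of the 10 genes for curdlan against unstimulated in WT and in KO (left), KO against WT in both states (middle) and the difference of the curdlan responses (right). Filled points had an adjusted p under 0.05. In the right panel Ifnar1 at -0.52 is the one filled point, while Ifnb1 at -1.29 has a longer bar and is open.

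By counts, curdlan raised 7 of the 10 members in WT and lowered 1, where 11.4% of all genes tested were higher and 8.4% lower. In KO-labelled cells 6 were higher and 1 lower, against 14% and 14.6% of all genes. KO against WT gave 6 higher and 0 lower without stimulation, against 21.1% and 23.3% of all genes. With curdlan it gave 5 higher and 2 lower, against 24.7% and 26.8%. With library size alone the splits were 6 and 1, 6 and 3, 5 and 2, and 5 and 3 in the same order. The median log2 fold changes of the 10 members in these 4 comparisons were 0.74, 0.57, 0.64 and 0.36, and those of all genes tested were -0.03, -0.00, -0.01 and 0.01. The comparisons share groups of libraries, so the counts are not independent of each other. The plot of fold changes shows the same values with their errors.

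Levels of different genes were compared per kilobase of merged exons (CPM per kb). Merged exons join the exons of all annotated transcripts, so an intron kept in 1 transcript counts as length. Those of Irf7 form 1 stretch of 3776 bases that spans the whole gene. Those of Irf9, 5386 bases in 6 stretches, cover most of its gene. This can lower the place of both genes in the orders given here. In WT unstimulated cells Irf5 led with 146 ± 5.7, followed by Irf4 with 50 ± 6.44, then Irf1 (25.7 ± 2.21) and Ifnar1 (24.4 ± 1.41), which overlapped. Irf8 followed with 16.1, then Irf2, Irf3 and Irf9 between 7.16 and 8.01, each overlapping the next. Irf7 at 1.76 and Ifnb1 at 0.141 came last. With curdlan in WT the first 5 kept this order, from Irf5 at 165 to Irf8 at 22.6 without overlap of neighbours. Irf9 followed at 15.2. Irf3, Irf7, Ifnb1 and Irf2 then lay between 6 and 7.91, each overlapping the next.

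In KO-labelled cells Irf1 moved up the order. Without stimulation Irf5 was at 167 ± 23.5 and Irf1 at 122 ± 17.3, and Ifnar1 (49.5 ± 1.47) stood above Irf4 (40.3 ± 4.01). Irf8 at 19.4, Irf9 at 14.3 and Irf7 at 12 followed, the latter pair overlapping, then Irf3 at 8.21, Irf2 at 7.17 and Ifnb1 at 1.99. With curdlan Irf1 at 228 ± 31.9 and Irf5 at 191 ± 30.6 overlapped. Irf4 (66.4), Ifnar1 (43.7), Ifnb1 (41.1), Irf7 (29.8), Irf8 (26.2) and Irf9 (23.7) formed a run in which each overlapped the next, so that the order inside it is not resolved. Irf3 at 7.34 and Irf2 at 4.95 came last.

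**Figure D3:**
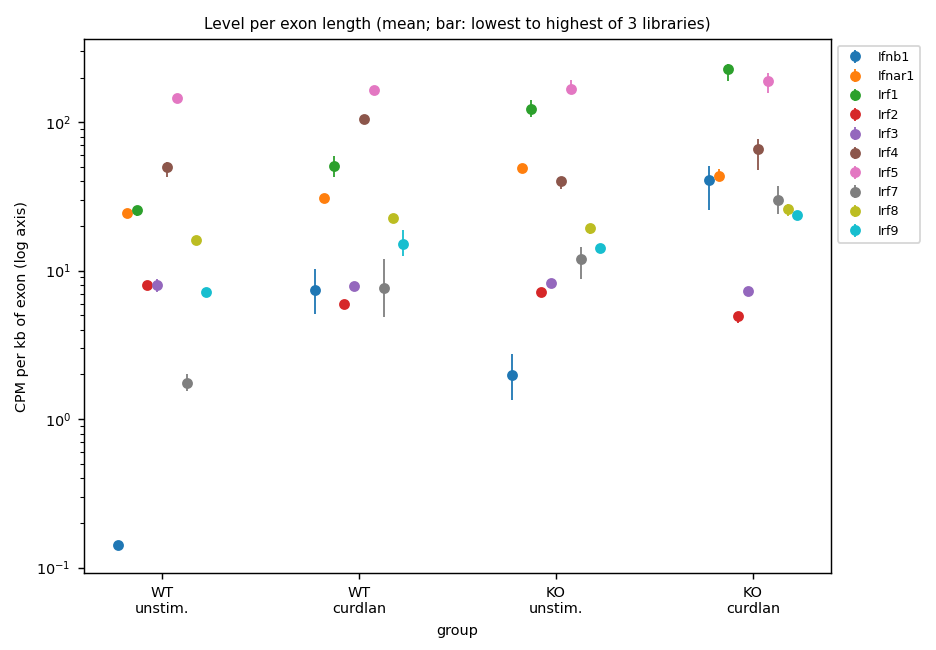
Level per kilobase of merged exons in CPM per kb (vertical log axis) of the 10 genes by group, as the mean of 3 libraries with a bar from the lowest to the highest. Ifnb1 climbs from 0.141 in WT unstimulated to 41.1 in KO curdlan cells, and Irf5 leads in 3 of the 4 groups.

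The signal chain of the receptor was followed with a list of 9 genes. Of these 9 receptor signalling genes, curdlan raised 6 and lowered 0 in WT (median 0.41), and raised 5 and lowered 1 in KO (median 0.40). Of all genes tested, 11.4% were higher and 8.4% lower in WT, and 14% and 14.6% in KO. KO exceeded WT in 7 of 9 unstimulated (median 0.53) and in 6 of 9 with curdlan (median 0.46), and 0 were lower. For all genes the higher shares were 21.1% and 24.7%, and the lower shares 23.3% and 26.8%. In fits that left out 1 library, curdlan raised 4 to 5 in WT, and raised 4 to 5 and lowered 0 to 1 in KO. In such fits KO exceeded WT in 5 to 6 unstimulated and in 4 to 6 with curdlan. The 6 raised in WT and the 7 higher in KO unstimulated were thus not reached. Usp18, which dampens the receptor, rose with curdlan by 1.82 (SE 0.29, adjusted p = 0.000831) in WT and 1.85 (SE 0.28, adjusted p = 0.000517) in KO. It was at 12.5 ± 1.74 CPM in WT and 63 ± 14.5 CPM in KO unstimulated libraries. Socs1, another feedback inhibitor, rose by 1.12 (SE 0.19, adjusted p = 0.00136) and 1.20 (SE 0.18, adjusted p = 0.000553). Stat2, the partner of IRF9, rose by 1.11 (SE 0.18, adjusted p = 0.000946) and 1.08 (SE 0.18, adjusted p = 0.000909).

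Among 27 interferon targets, curdlan raised 22 in WT and 26 in KO and lowered 0 in either, with medians of 1.48 and 1.19. Of all genes tested, 11.4% and 14% were higher, and 8.4% and 14.6% lower. All 27 were higher in KO than in WT in both states, against 21.1% and 24.7% of all genes, with medians of 2.39 and 1.95. This held in each of the 6 fits of both comparisons that left out 1 library. In the curdlan comparisons such fits left 19 to 22 of 27 in WT and 24 to 25 in KO. The antiviral enzyme gene Rsad2 was at 15.4, 11.5 and 11.5 CPM in WT unstimulated and at 228, 186 and 514 CPM in WT curdlan libraries, with library 4 the highest. In KO-labelled libraries it was at 393, 400 and 328 CPM unstimulated and at 2430, 1980 and 2440 CPM with curdlan. Its rise was 4.59 in WT and 2.61 in KO, a difference of -1.98 (SE 0.42, adjusted p = 0.0211). In this difference, where 3.6% of all genes were lower and 1.61% higher, 4 targets were lower and 1, Ifi35 at 0.88 (SE 0.17, adjusted p = 0.0138), was higher. Leaving out single libraries gave 1 to 5 lower and 1 to 5 higher, with 5 higher when WT curdlan library 4 was left out and 1 lower when WT unstimulated library 2 or 4, KO unstimulated library 1 or KO curdlan library 4 was.

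Of 24 sensors, adapters and kinases that lead to Ifnb1, curdlan raised 14 and lowered 1 in WT (median 0.46) and raised 9 and lowered 5 in KO (median 0.12). The shares of all genes tested were 11.4% higher and 8.4% lower in WT, and 14% and 14.6% in KO. Fits that left out 1 library gave 11 to 13 higher in WT and 7 to 8 in KO, so neither 14 nor 9 was reached. Ifih1, the RNA sensor MDA5, rose by 2.23 (SE 0.17, adjusted p = 3.47e-06) in WT and by 1.71 (SE 0.17, adjusted p = 2.49e-05) in KO. Trim25, a ligase that acts on RIG-I, rose by 1.03 (SE 0.11, adjusted p = 4.1e-05) and 1.64 (SE 0.11, adjusted p = 1.9e-06). KO exceeded WT in 18 and was lower in 3 unstimulated, led by Ifih1 at 2.69, the DNA sensor Tlr9 at 2.24 and Nod2 at 1.62. With curdlan 14 were higher and 6 lower, and fits that left out 1 library gave 11 to 14 higher and 5 to 7 lower. Among all genes 21.1% were higher and 23.3% lower unstimulated, and 24.7% and 26.8% with curdlan. The 6 lower of 24 were near that last share. Ticam2, an adapter of TLR4, moved in opposite directions with curdlan. In WT it went from 37.7 ± 3.72 CPM to 59.2 ± 1.36 CPM with curdlan, and in KO from 71 ± 8.06 CPM to 43.3 ± 3.97 CPM. The difference was -1.37 (SE 0.14, adjusted p = 0.00105), the largest of 4 lower and 1 higher in this list, against 3.6% and 1.61% of all genes. Leaving out single libraries gave 2 to 9 lower, with 9 without KO curdlan library 2 and 2 without any of WT unstimulated library 1 or 2, WT curdlan library 1 or 2, KO unstimulated library 1 or KO curdlan library 4. The count of 5 lower with curdlan in KO was 9 without KO curdlan library 2 and 3 without KO unstimulated library 1.

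Of 9 factors of the Ifnb1 enhancer, curdlan raised 3 in WT, the NF-kB subunit genes Rel (1.10, SE 0.23, adjusted p = 0.00503), Nfkb1 (0.95, SE 0.09, adjusted p = 2.87e-05) and Rela (0.56, SE 0.09, adjusted p = 0.000883). The replicate block gave 8. In KO 3 were higher and 1 lower, with Nfkb1 at 0.57 (SE 0.09, adjusted p = 0.000938) and Crebbp, a coactivator, at -0.57 (SE 0.14, adjusted p = 0.0111). Of all genes tested, curdlan raised 11.4% in WT, and raised 14% and lowered 14.6% in KO. KO exceeded WT in 7 of 9 unstimulated and in 5 of 9 with curdlan. Neither count was reached in fits that left out 1 library, which gave 4 to 6 unstimulated and 3 to 4 with curdlan. The 4 unstimulated came without WT unstimulated library 1 or KO unstimulated library 1. The 3 with curdlan came without any of WT curdlan library 1, 2 or 4 or KO curdlan library 2 or 4. Among all genes 21.1% and 24.7% were higher in KO in these states. Prdm1, a repressor that binds the enhancer, was at 19.8 ± 0.721 CPM in WT and 64 ± 17.8 CPM in KO unstimulated libraries, a gap of 1.69 (SE 0.22, adjusted p = 5.97e-05). No gene of this list passed the test of the difference of the responses, though 4 were lower when KO curdlan library 2 was left out.

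Of 11 partners and cofactors of the IRFs 10 were tested. With curdlan 2 were higher and 2 lower in WT, and 1 was higher and 3 lower in KO. Of all genes tested, 11.4% were higher and 8.4% lower in WT, and 14% and 14.6% in KO. The WT counts did not hold when single libraries were left out, with 0 to 1 higher and 1 to 2 lower. There were 0 higher without WT unstimulated library 4 or WT curdlan library 4 and 1 in the other fits, and 1 lower in all but that without WT unstimulated library 4. With the replicate block 5 were higher and 4 lower in WT. Irf2bp2, a corepressor that binds IRF2, was lower in both, at -0.92 (SE 0.11, adjusted p = 8.75e-05) and -0.88 (SE 0.11, adjusted p = 9.82e-05). The direction was that of Irf2. Batf2 rose by 0.76 (SE 0.21, adjusted p = 0.0255) and 1.22 (SE 0.20, adjusted p = 0.001). KO against WT gave 4 higher and 3 lower of 10 in both states. Among all genes 21.1% were higher and 23.3% lower unstimulated, and 24.7% and 26.8% with curdlan. The count of lower genes was thus near the share of all genes. Ikzf3 at -2.86 (SE 0.20, adjusted p = 4.97e-07) and Spib, a relative of PU.1, at -1.61 (SE 0.13, adjusted p = 1.6e-06) were lower unstimulated, and Batf, an AP-1 factor that pairs with IRF4 and IRF8, was higher at 1.40 (SE 0.08, adjusted p = 8.11e-08). Ikzf3 and Spib are also expressed by B cells, whose markers were lower in the same libraries, and their part was not tested.

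**Figure D4:**
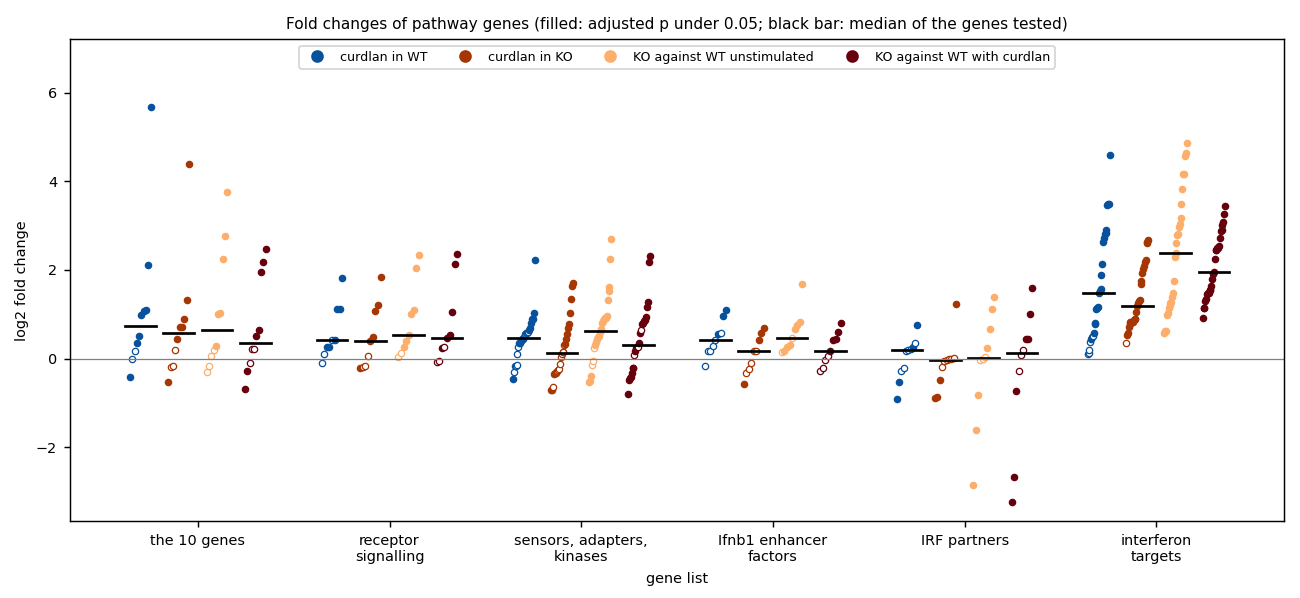
log2 fold change (vertical axis) of the 10 genes and of 5 lists of pathway genes (horizontal axis) in 4 comparisons (colours). Each point is a gene, filled where the adjusted p was under 0.05, and the black bar is the median of the genes tested. The interferon targets have the highest medians, up to 2.39 for KO against WT unstimulated.

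The genes most like each member over the 12 libraries were found by Pearson's r of log2 CPM among 9769 genes. These had a mean log2 CPM of 2 or more and a symbol that was not a Gm or Rik name. The 12 points are 4 groups of 3 libraries, and r is given as a description. Ifnb1 was most like Slc25a25 (0.995) and Mex3c (0.993), and Ifnar1 most like Nod2 (0.991) and Susd6 (0.991). Irf1 was most like the chemokine gene Ccl12 (0.995) and Map3k7 (0.994), and Irf9 most like Irgm1 (0.994) and Nfkb2 (0.993). Irf7 was most like Ifi205 (0.988) and Mnda (0.986), which are close relatives of one family, so that reads may be split between them. Irf2 had Gltscr1l (0.983) and Zfp36l2 (0.982), Irf4 had Inhba (0.977) and Slc41a1 (0.974), and Irf8 had Nfat5 (0.981) and Rabgef1 (0.980). For Irf5 the values were lower, with Zbtb18 at 0.933 and Tmem192 at 0.931. Irf3 had Tbc1d17 at 0.794 and Zdhhc17 at 0.781.

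Within the 10 genes the closest pair was Ifnb1 and Irf9 with r = 0.97 over the 12 libraries, followed by Irf7 and Irf9 with 0.96. Irf2 ran against Ifnb1 with r = -0.92. Irf4 was apart from Irf1 (-0.12), Ifnar1 (-0.25) and Irf7 (0.13).

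The authors' deposited table of KO against WT with curdlan gave Ifnb1 a log2 fold change of 2.27 (SE 0.26), Irf1 2.10 (SE 0.16), Irf7 1.61 (SE 0.37) and Irf4 -0.66 (SE 0.17). A second table of the authors is named an interaction. Its values in the authors' deposited table were 3.82 for Ifnb1, 1.03 for Ifnar1 and 2.26 for Irf1. Over 18981 genes its values differed from KO against WT unstimulated by a median of 0.011 and from the difference of the curdlan responses by a median of 0.473, so it was not read here as a test of that difference.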

How the data were processed

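The authors deposited whole-number read counts per gene for 12 libraries, and 2 comparison tables with log2 fold changes and p-values, per the file headers. The submitters' processing notes name featureCounts 1.4.6, TopHat2 (with the version 2.4.2a), FastQC 0.11.1, DESeq2 1.8.2 and SAMtools 1.2, without saying what each was used for. Not given in the sources used here are the build, the annotation and how reads with more than 1 match were counted. The 18 normalized columns of the comparison tables were not used. Coordinates come from a GENCODE annotation of GRCm38, matched by identifier.

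The 10 genes, the pathway and marker lists and the tests were chosen with earlier results of these data known. Of the 37991 genes, 10118 had no read. Genes were filtered with filterByExpr by group, scaled by TMM and tested in R 4.3.3 by the two-sided quasi-likelihood F-test of edgeR 4.0.16, with 4 group means fitted to all 12 libraries at once. P-values were adjusted by Benjamini-Hochberg over all 18981 genes, with a threshold of 0.05, and all adjusted p-values above are from this test unless another setting is named. The SE is the log2 fold change divided by the root of F. The test was tried on simulated data. Named beside the members are up to 3 genes per list and comparison by size among those past the threshold, fewer in places. Ifi35 falls outside this rule and was chosen after its values were seen, as were the ratio of Irf4 to Irf8 and the genes whose levels are given beside their fold changes. The 2 genes most like each member were taken by r of log2 CPM with a prior count of 2.

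Replicate numbers come from the library names. Deviations of same-numbered WT libraries correlated at 0.65, 0.49 and 0.21 over 11298 genes, all above 0.1, and those of KO libraries 2 and 5 at 0.42 and 0.82, while KO libraries of different numbers reached 0.46 (unstimulated 2 with curdlan 4) and 0.43 (unstimulated 1 with curdlan 2). WT libraries of different numbers reached 0.19 (unstimulated 2 with curdlan 4), close to the 0.21 of the pair numbered 4. The numbers thus pair WT libraries 1 and 2 by this measure. The pairing of WT library 4 and of the KO libraries is not settled. The authors' comparison table numbers the WT curdlan libraries 4, 1 and 2 where the count table gives 1, 2 and 4. Alternatives were RLE, upper-quartile and no scaling, no filter, DESeq2 1.42.0, fits of 2 groups, leaving out each library, and the replicate block. The replicate block with the table's numbers and the recounts of the pathway lists were added after the data were seen. Replicates differed by more than counting noise, and none were merged.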

Additional observations from a re-analysis of the deposited data

Results flagged for a closer look

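The curdlan response of Ifnar1 differed between the genotypes, at -0.52 on the log2 scale (KO minus WT, edgeR, adjusted p = 0.0216), with a rise of 0.34 in WT and a value of -0.18 in KO. It was the one member past the threshold in the test of the difference itself, and the call was lost without WT unstimulated library 1, WT curdlan library 2 or KO unstimulated library 1, and with the comparison table's numbers as the replicate block.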

How the results depend on the processing

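Each total of members past the threshold (higher and lower together), other than that of the difference of the curdlan responses, stayed within 1.5 times under every alternative run. Split by direction they moved further. The members lower with curdlan in KO were 3 in place of 1 with library size alone (Ifnar1, Irf2 and Irf3) and 2 without KO curdlan library 2. Those lower in KO unstimulated were 2 in place of 0 with library size alone (Irf2 and Irf4) and 1 with upper-quartile scaling, with the 2 groups alone and with the block across genotypes by the comparison table's numbers. The count for the difference of the curdlan responses was 1, ranged from 0 to 1 when single libraries were left out, was 2 with the replicate block (Ifnb1 and Ifnar1) and 0 with the comparison table's numbers as the replicate block. Over 750 values of single members under alternatives, 10 calls were lost, 21 were gained, and 23 values turned sign, 0 of them past the threshold on either side. For Irf3 with curdlan in WT the value turned to 0.00 (RLE), 0.01 (2 groups alone) and, over fits that left out 1 library, ran from -0.07 to 0.07, and for Irf3 in KO against WT unstimulated to -0.13 (library size alone) and, over fits that left out 1 library, ran from -0.02 to 0.12. For Irf5 it turned to -0.01 with curdlan in KO and -0.03 in KO against WT with curdlan (library size alone). In the difference of the responses Irf5 turned to -0.05 (library size alone), -0.08 to 0.14 (single libraries left out) and -0.13 (either replicate block), Irf1 to 0.04 and 0.05 (single libraries left out) and Irf8 to 0.05 (either replicate block). Irf8 in KO against WT with curdlan turned to -0.04 (library size alone). Library size alone moved the median of all genes to -0.17, -0.20, -0.19 and -0.24 for curdlan in WT, curdlan in KO, and KO against WT unstimulated and with curdlan, and left 25.1%, 17.9%, 26.4% and 23.7% of the calls higher. Upper-quartile scaling left 46.3% of the calls for curdlan in WT higher. In the difference of the responses over all genes, 2166 genes passed with DESeq2 and 2671 with the replicate block, against 305 higher and 684 lower. For curdlan in WT the replicate block gave 7276 calls, against 2164 higher and 1595 lower. For curdlan in KO the 2 groups alone gave 3142 calls, against 2658 higher and 2767 lower. The number shared across genotypes did not pair the libraries (r from -0.35 to 0.20), and as a replicate block it gave 7 members unstimulated and 8 with curdlan, against 6 and 7, with Irf5 gained in both (0.28 each, adjusted p = 0.0355 and 0.031). With the comparison table's numbers it also gained Irf4 (-0.43, adjusted p = 0.0474) and lost Irf8 (0.23, adjusted p = 0.0559) unstimulated. With 20 counts over 3 libraries, Ifnb1 in unstimulated WT cells is limited by depth, as are the other interferons.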
